A study of Drosophila melanogaster with 17 samples.

Results

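In chromatin of Drosophila melanogaster BG3-c2 cells, 591 of 11823 windows of 10 kb carried the shortest tetranucleosome fragments of the genome arms. Each window lies on 2L, 2R, 3L, 3R or X and held at least 300 distinct fragments of 500 to 1000 bp, counted by midpoint, in the Illumina library of the high MNase digest. The short windows were chosen by that library alone, as the 5% with the lowest mean length of those fragments. The arms hold 11906 windows in all, and 11232 windows that met the minimum form the comparison set, called the other windows. All coordinates are release 5 of the fly genome, counted from 1.

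Micrococcal nuclease (MNase) cuts linker DNA between nucleosomes and leaves a ladder of fragments that hold whole numbers of nucleosomes. Because a fragment with several nucleosomes also holds the linkers between them, its length reflects the nucleosome repeat length, which is the nucleosomal DNA plus 1 linker. Remodellers of the ISWI family space nucleosomes into regular arrays, and the linker histone H1 binds DNA where it enters and leaves the nucleosome and is associated with longer repeats. MNase also trims fragment ends and cuts AT-rich DNA more readily, so length depends on the degree of digestion as well as on spacing.

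The series comprises 17 libraries, of which 10 were read on Oxford Nanopore devices and 7 on an Illumina instrument. BG3-c2 cells, from the larval central nervous system, and Kc cells, from embryos, were grown at 26°C, and chromatin was digested for 20 min at 37°C. Untreated BG3-c2 nanopore chromatin, Kc chromatin after control or H1 double-stranded RNA (dsRNA) on nanopore, and tetranucleosomal Illumina DNA of BG3-c2 cells after control or ISWI dsRNA had 2 libraries each. Untreated BG3-c2 chromatin digested to 3 degrees, low, medium and high, had 1 library per degree on each platform, and MNase-digested naked BG3-c2 DNA, which carries no histones, had 1 nanopore library. Control dsRNA was directed against GST, ISWI dsRNA was given at 50 µg with harvest on day 6, and H1 dsRNA was repeated on day 3. The Illumina titration is labelled as total digested chromatin, yet its lengths peaked near those of the gel-cut DNA, so whether it was cut from gels is unsure, and the labels do not say whether its digests came from 1 preparation. How far each knockdown went was not analysed here. Nothing in the labels says that replicates came from separate cultures, so p-values measure the spread between libraries, which may be technical.

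Depth differed widely. The titration on Illumina gave 21911774 to 79123616 distinct fragments on the arms, the 4 tetranucleosomal libraries 996612 to 8456518, nanopore chromatin 25152 to 1230250 and naked DNA 2437227. In the tetranucleosomal libraries replicate 2 had 16.9% (control) and 14.6% (ISWI) of its intervals on the arms, against 46.2% and 43.7% in replicate 1. The differences tested over these 4 libraries are therefore given by library. Intervals below cover counting error only.

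In the high digest, which chose them, the short windows had mean lengths of 616.1 to 639.9 bp with a median of 637.1 bp, and the other windows had a median of 655.8 bp and reached 762.0 bp. These values describe the choice and are not tested. A short window held a median of 711 fragments of this class, against 953 for the others, and the median standard error of a window's mean was 2.12 bp and 1.96 bp. The limit cuts through a continuous distribution. The last windows inside it, X from 13750001 to 13760000 and 3R from 14620001 to 14630000, and the first outside it, 3R from 3790001 to 3800000 and 3L from 15920001 to 15930000, all had 639.9 bp.

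The short windows were unevenly spread over the arms. X held 188 of them, which is 8.62% of its windows that met the minimum, and 3L held 148 (6.04%). They made up 4.96% on 2L (114 windows), 2.98% on 3R (83 windows) and 2.76% on 2R (58 windows). X thus carried 31.8% of the short windows and 18.5% of the windows to choose from. The excess on X moved with the fragment minimum. With 600 fragments required, 8.66% of the short windows lay on X, which then held 7.60% of the eligible windows, and among windows with naked DNA coverage of 0.67 to 1.5 times the median the shares were 10.4% and 4.22%. With each arm cut into 5 parts, the share was highest in the middle part on X (12.3%) and on 3L (9.57%), and it was lowest of all in the part of 2R farthest from the centromere (0.718%). Within 1 Mb of the centromeric end of the arms 7.74% of windows were short, against 5.24% from 1 to 2 Mb, 3.03% from 2 to 5 Mb, 6.46% from 5 to 10 Mb and 4.68% beyond.

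Short windows tended to neighbour each other. Of the 591, 212 (35.9%) had an adjacent short window, while 9.05% of all eligible windows did. They formed 468 runs, of which 379 were single windows, 65 were pairs and 24 held 3 or more. The longest run, on 3L from 10490001 to 10550000, spanned 6 windows. A run of 5 lay on 3L from 7820001 to 7870000, and a run of 4 on X from 2980001 to 3020000. That run on X holds the windows with the second and the fourth lowest lengths of all, at 619.8 and 622.4 bp. The lowest window of all was X from 13880001 to 13890000, at 616.1 ± 2.81 bp (SE over 315 fragments).

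The low and medium digests, which played no part in the choice, had shorter tetranucleosome fragments in the same windows. In the low digest the short windows averaged 688.8 bp and the others 697.8 bp. That is a difference of -9.07 bp or -1.56 SD, with the SD taken over short and other windows together. In the medium digest the means were 647.1 and 660.5 bp, a difference of -13.5 bp or -1.68 SD. Fewer bases thus separated the sets in the lighter digest, with 1 library per digest and no test. On each of the 5 arms the short windows were shorter, with differences of -10.1 to -8.12 bp in the low and -14.6 to -12.7 bp in the medium digest.

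**Figure D1:**
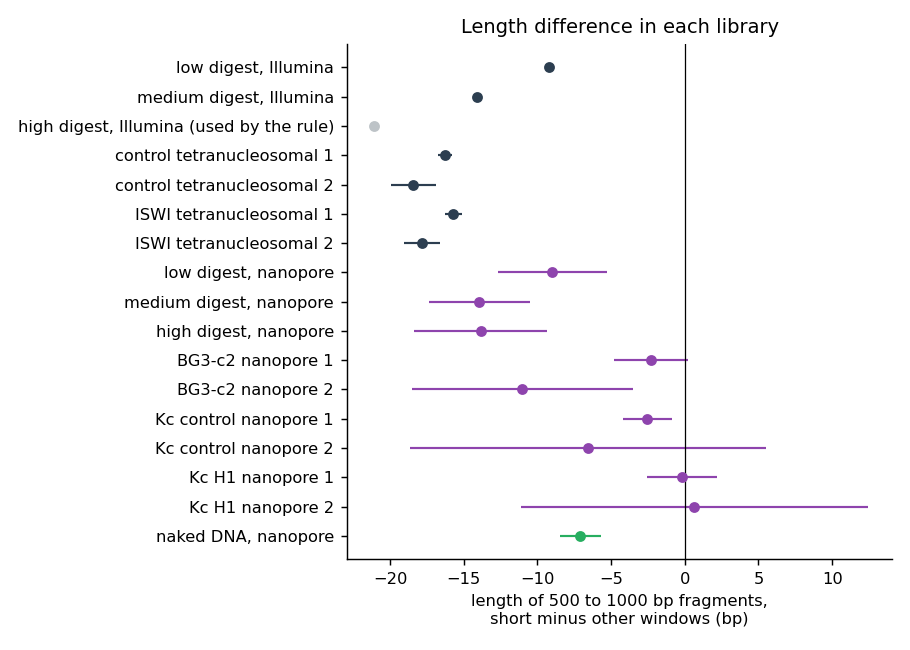
Points show the mean length of all 500 to 1000 bp fragments in the short windows minus that in the other windows (bp) for each of the 17 libraries, and bars the 95% counting interval. The 6 Illumina libraries outside the choice lie between -18.4 and -9.21 bp, the high digest in pale grey, which chose the windows, lies at -21.1 bp, the nanopore chromatin libraries lie between -13.95 and 0.65 bp, and naked DNA lies at -7.10 bp.

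The share of short windows that ranked among the shortest again differed by library. By definition 10.0% of eligible windows fall in the lowest 10% of the low digest, and 378 of 591 short windows (64.0%) did so. In the medium digest 483 of 591 (81.7%) did, and all 591 lay below the library median. In control replicate 1 of the tetranucleosomal libraries 336 of 591 (56.9%) were in the lowest 10%, and in ISWI replicate 1 276 of 585 (47.2%), each against a background of 10.0%. The shallow replicates 2 measured few of these windows with 30 or more fragments, and there the counts were 29 of 110 in control (26.4%) and 34 of 83 in ISWI (41.0%), against 9.99%. Among windows with 100 or more fragments in all 4 of the low, medium, control 1 and ISWI 1 libraries, 81 of 287 short windows (28.2%) were in the lowest 10% of each, and 1.3% of all 10253 such windows were. Below the median in each of them were 261 of the 287 (90.9%), against 21.5% of all.

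Tetranucleosomal DNA cut from gels showed the same direction in every library. Over window means the difference was -15.2 and -10.9 bp in the control replicates and -14.1 and -14.2 bp in the ISWI replicates. The mean difference was -13.6 ± 1.88 bp (SD, n = 4 libraries), and an exact two-sided sign-flip test gave p = 0.13, the smallest that 4 libraries allow. Replicates 2 entered with 110 and 83 short windows only, so all fragments of each set were also pooled. The pooled means were 655.4 against 671.6 bp and 652.5 against 670.9 bp in the control replicates. They were 636.6 against 652.3 bp and 623.5 against 641.3 bp in the ISWI replicates. The pooled differences of -16.2, -18.4, -15.7 and -17.8 bp averaged -17.1 ± 1.28 bp (SD, n = 4, exact sign-flip p = 0.13).

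The short windows that were lowest in the libraries outside the choice can be named. The window on 2R from 70001 to 80000 was the lowest of the 10253 ranked windows in each of the low, medium, control 1 and ISWI 1 libraries. Its means there were 658.3 ± 1.25, 627.5 ± 1.62, 617.2 ± 3.64 and 605.2 ± 5.36 bp (SE over 4078, 2060, 316 and 173 fragments). In naked DNA the same window had 683.3 ± 14.4 bp over 76 fragments, and in Kc control replicate 1 it had 697.5 ± 18.9 bp over 62 fragments, both within 1 SE of the averages of the other windows. Next by mean rank among the short windows came X from 15440001 to 15450000 and X from 19340001 to 19350000. They were followed by 3R from 5170001 to 5180000 and 3L from 9840001 to 9850000. The most extreme windows by the high digest, such as X from 13880001 to 13890000, had too few fragments to be ranked in the tetranucleosomal libraries, with 40 in control 1 and 19 in ISWI 1.

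**Figure D2:**
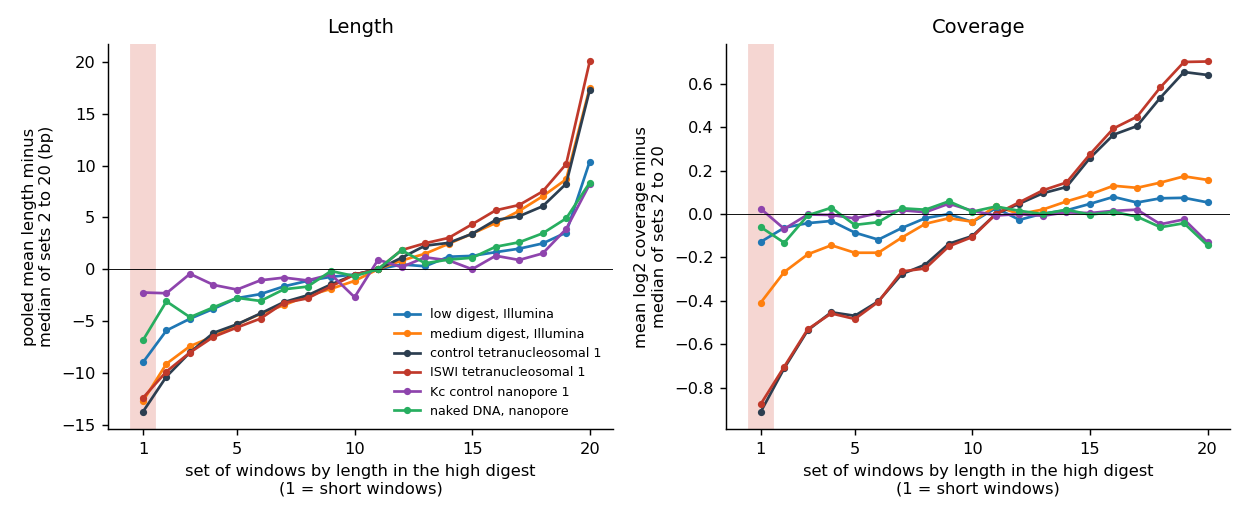
Windows are split into 20 sets by their length in the high digest, where set 1 holds the 591 short windows. The left panel gives the mean length of pooled fragments and the right panel the mean log2 coverage, each relative to the median of sets 2 to 20 of the same library. Length rises from set 1 to set 20 in all 4 Illumina libraries shown, from 688.9 to 708.2 bp in the low digest, while coverage rises most in the tetranucleosomal libraries.

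In the Illumina libraries the short windows lay at the end of a gradient. Set by set in the order of the high digest, pooled length in control replicate 1 was 655.4 bp in the short windows, 658.8 bp in the second set, 661.1 bp in the next and 686.4 bp in the last. From the first to the last set it went from 652.5 to 693.8 bp in control replicate 2, and from 636.6 to 669.1 bp and from 623.5 to 663.2 bp in the ISWI replicates. In the medium digest it was 647.5, 651.1, 652.8 and 677.7 bp. Naked DNA also rose along this order, from 672.6 bp in the short windows to 687.8 bp in the last set. In Kc control replicate 1 the short windows, at 689.4 bp, were not the lowest set. Set 10 had 689.0 bp and the last set 699.9 bp. Nor were they the lowest in BG3-c2 nanopore replicate 1, with 682.2 bp against 681.0 bp in set 4 and 693.5 bp in the last.

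The shape of the length distribution showed what the means summarise. The most frequent length between 550 and 900 bp, after smoothing, was 681 bp in the short and 697 bp in the other windows of the low digest. It was 643 against 681 bp in the medium digest. In the tetranucleosomal libraries the modes were 644 against 664 bp and 647 against 667 bp for control, and 617 against 632 bp and 607 against 631 bp for ISWI. The modes thus differed by -19.75 ± 3.69 bp over these 4 libraries (SD; exact two-sided sign-flip p = 0.13), and the peak itself lay at shorter lengths. The share of 500 to 600 bp among the 500 to 1000 bp fragments was also higher by 4.62, 5.30, 7.52 and 9.63 points, a mean of 6.76 ± 2.27 points (SD, n = 4, exact sign-flip p = 0.13).

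**Figure D3:**
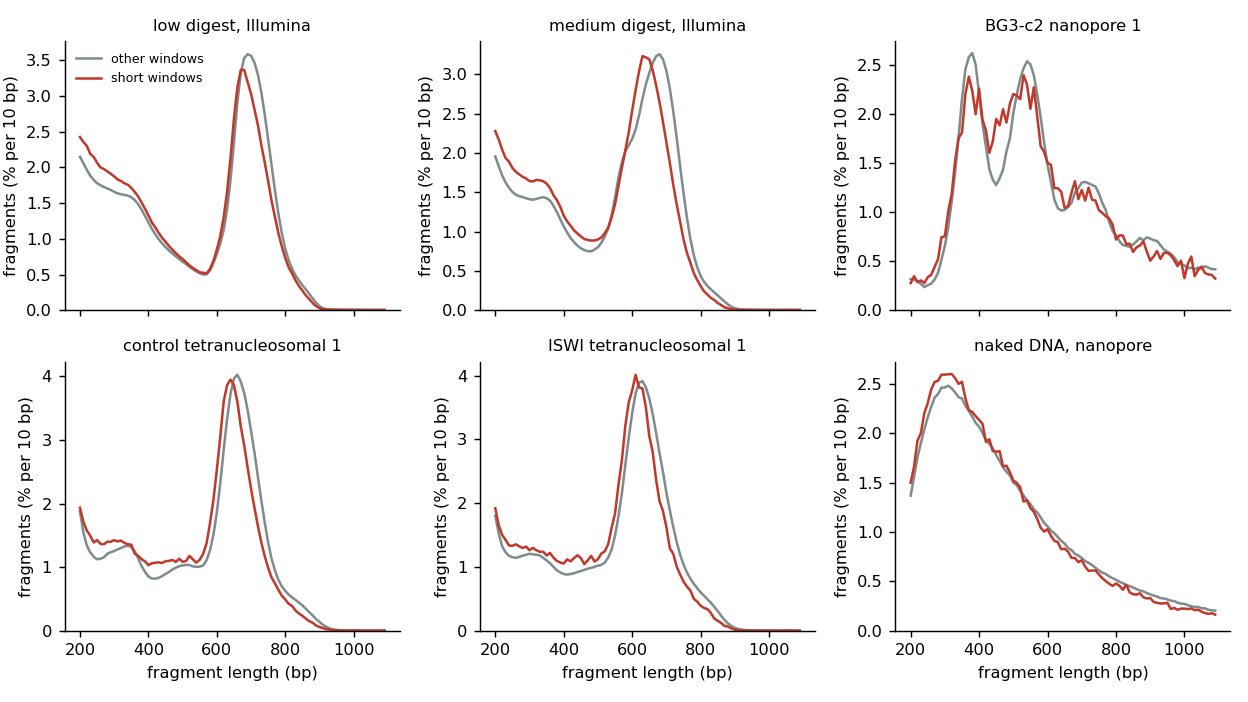
Fragment length histograms (percent of the fragments of 200 to 1099 bp, per 10 bp) of the short windows in red and the other windows in grey, for 6 libraries. The tetranucleosomal peak lies at lower lengths in the short windows, 643 against 681 bp in the medium digest, and the naked DNA curve has no peak there.

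Nanopore reads of the unselected ladder gave less even differences. The mean length of 500 to 1000 bp reads was lower in the short windows in 8 of 9 chromatin libraries, and the 95% counting interval lay below 0 in 5 of them. In the low, medium and high digests the differences were -8.99, -13.95 and -13.9 bp, with intervals of -12.7 to -5.28, -17.4 to -10.5 and -18.4 to -9.38 bp. Pooled in the same way, the low and medium digests on Illumina gave similar differences of -9.21 and -14.1 bp. In untreated BG3-c2 chromatin they were -2.29 bp (-4.81 to 0.228) and -11.0 bp (-18.5 to -3.53). In Kc cells with control dsRNA they were -2.55 bp (-4.22 to -0.874) and -6.55 bp (-18.6 to 5.54), and with H1 dsRNA -0.200 bp (-2.58 to 2.18) and 0.652 bp (-11.1 to 12.4). This range of 500 to 1000 bp spans parts of the tri-, tetra- and pentanucleosome peaks in an unselected ladder, so it is a different measure from that of gel-cut DNA.

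Naked DNA differed as well. Its reads of 500 to 1000 bp averaged 672.6 bp in the short windows and 679.7 bp in the others, a difference of -7.10 bp with an interval of -8.49 to -5.70 bp. Of 548 short windows with 30 or more such reads, 98 (17.9%) were in the lowest 10% of naked DNA, against a background of 9.99%, and 64.4% were below its median. In Kc control replicate 1, 57 of 545 (10.5%) were in the lowest 10%, against 10.0%. The part that sequence preference of MNase has in the lengths in chromatin was not tested, and no genome of the files' release was used here.

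The ladder of nanopore reads had weaker maxima in the short windows. Read counts at the maxima for 3 and 4 nucleosomes, divided by the smooth trend, were 1.17 in the short and 1.29 in the other windows of BG3-c2 replicate 1, and 1.19 and 1.31 in Kc control replicate 1. The ratio was lower in the short windows in 8 of 9 chromatin libraries, the exception being H1 replicate 2 with 1.37 against 1.33 over 1181 reads. In naked DNA it was 0.969 and 0.997, with no ladder. On nanopore it was 1.01 and 1.09 in the medium digest and 0.913 and 1.03 in the high digest. Short windows of the high digest thus fell below naked DNA, and the slopes given for these digests rest on weak maxima. The maxima for 3 and 4 nucleosomes lay at 539 and 732 bp in the short and at 550 and 741 bp in the other windows of BG3-c2 replicate 1, but that for 5 lay at 957 and 920 bp. The slope through the maxima for 2 to 5 nucleosomes had no common direction. It was 195.1 against 182.9 bp in BG3-c2 replicate 1 and 180.2 against 184.6 bp in replicate 2, where 1 maximum of the short windows lay on the limit of its search, a mean difference of 3.90 ± 11.7 bp (SD, n = 2). In Kc control cells it was 184.2 against 180.6 bp and 195.7 against 179.5 bp, a mean difference of 9.90 ± 8.91 bp (SD, n = 2). In the low digest it was 218.6 against 184.9 bp, with 1 maximum on a limit, in the medium digest 171.7 against 186.1 bp and in the high digest 182.2 against 187.5 bp. With H1 dsRNA it was 148.0 against 165.6 bp and 173.3 against 164.3 bp. These H1 slopes were unstable in the short windows. Smoothed with an SD of 20 bp they were 196.2 against 165.1 bp and 206.3 against 164.5 bp, with 2 and 3 maxima of the short windows on limits.

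Periodic spacing of fragment ends was weaker in the short windows. The distance between left ends of fragments repeated with a best period of 177 and 178 bp in the other windows of the low and medium digests and of 178 and 179 bp in the control tetranucleosomal replicates, but of 221 and 227 bp in the ISWI replicates. In the short windows the fit gave 176 bp in control replicate 1, 214 and 179 bp in the ISWI replicates, 220 bp in the medium digest, and the upper limit of the search, 250 bp, in the low digest and control replicate 2. A period could thus not be read reliably from the short windows. The amplitude of the best cosine, as percent of the trend, was 0.636% against 0.935% in the low digest and 0.595% against 1.03% in the medium digest. In the control replicates it was 0.611% against 1.71% and 1.33% against 1.99%. In the ISWI replicates it was 0.741% against 1.04% and 1.69% against 1.38%, so the shallow ISWI replicate 2 went the other way. The mean difference was -0.440 ± 0.594 points (SD, n = 4), and the exact two-sided sign-flip test gave p = 0.375. This direction did not hold when dense 1 kb bins were kept, which gave 3.15 points (exact sign-flip p = 0.25).

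Since the fitted period differed between the sets, the amplitude was also taken at 178 bp, the period of the other windows in control replicate 1, an alternative added after the data were seen. There the short windows had 0.351 and 0.404 times the amplitude of the other windows in the control replicates, and 0.481 and 1.27 times in the ISWI replicates, whose other windows had a longer fitted period. With dense bins kept, these ratios were 0.616, 2.73, 1.37 and 4.50, so only control replicate 1 stayed below 1. The ratio was 0.543 and 0.465 in the low and medium digests, and 0.315 in the high digest, which chose the windows. It was 0.647 in BG3-c2 nanopore replicate 1 and 0.552 in Kc control replicate 1, while in naked DNA the short windows had 0.287% and the others 0.0806%. On each of the 5 arms the short windows were lower in the low, medium and high digests and in replicate 1 of control and ISWI. They were lower on 3 of 5 arms in control replicate 2, BG3-c2 nanopore replicate 1 and Kc control replicate 1, and on 2 of 5 in ISWI replicate 2.

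**Figure D4:**
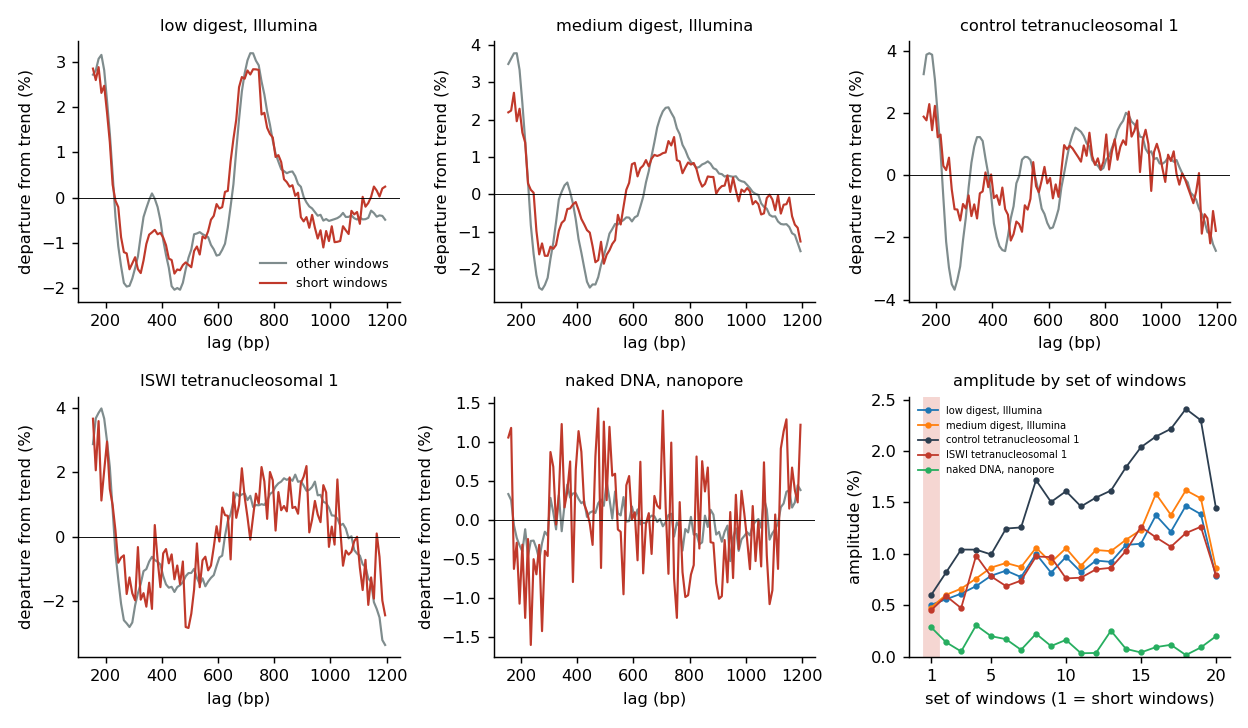
The first 5 panels show how far the count of left-end pairs departs from its trend (percent) by lag (bp), in the short windows in red and the other windows in grey. The last panel shows the amplitude at 178 bp (percent) for 20 sets of windows by length in the high digest, with the short windows as set 1. In control replicate 1 the short windows reach 0.601%, the lowest of the 20 sets, and naked DNA stays at or under 0.306% in every set.

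A set of 591 windows holds fewer fragments than 11232 windows and so gives a noisier amplitude. The 20 sets match in the number of windows but not in fragments, since mean log2 coverage in control replicate 1 ran from -0.85 in the short windows to 0.71 in set 19. With dense bins left out, the short windows were at 178 bp the lowest of 20 such sets in the low and medium digests and in replicate 1 of control and ISWI. In control replicate 1 they had 0.601%, and the other sets ran from 0.821% to 2.41%. They ranked second from the lowest in the high digest, which chose them, in control replicate 2 and in Kc control replicate 1. They ranked 3 of 20 in BG3-c2 nanopore replicate 1. In ISWI replicate 2 they ranked 16 of 20, and in naked DNA 19 of 20, at 0.287%.

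The short windows were read less often, most of all in tetranucleosomal DNA. Distinct fragments of any length had a median of 353 per short window and 637 per other window in control replicate 1, and 54 and 107 in replicate 2. In the ISWI replicates the medians were 218 against 387 and 37 against 71. On the log2 scale the difference was -0.90, -0.98, -0.88 and -0.995, a mean of -0.94 ± 0.057 (SD, n = 4, exact sign-flip p = 0.13). Between 91.2% and 94.6% of the short windows lay below the library median in these 4 libraries.

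With 1 library per digest, digest and library cannot be told apart in the coverage of the titration. In the Illumina titration the log2 difference was -0.13 for the low digest, -0.40 for the medium and -0.38 for the high. The same digests on nanopore gave 0.027, -0.070 and -0.13, and naked DNA gave -0.046. These small values depend on X, since on autosomal arms alone the low digest on Illumina (0.016), the medium digest on nanopore (0.037) and naked DNA (0.026) had the opposite sign. In naked DNA the short windows had a median of 0.077 on this scale and a lower quartile of -0.69. In Kc control cells coverage was higher by 0.033 and 0.11, and in untreated BG3-c2 nanopore chromatin lower by 0.10 and 0.29. Per arm, the tetranucleosomal difference ran from -0.70 to -0.90 in control replicate 1 and from -0.64 to -0.90 in ISWI replicate 1. In replicates 2 it ran from -0.78 to -1.03 and from -0.73 to -1.0.

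The loss differed by fragment length and was greatest above 800 bp. In the medium digest a short window held 0.893 times as many fragments of 1 to 250 bp as an other window, 0.660 times as many of 601 to 800 bp and 0.426 times as many of 801 to 1000 bp. In the low digest the ratios were 1.06, 0.835 and 0.733. In control replicate 1 they were 0.543, 0.464 and 0.324, with the least loss, 0.604, at 451 to 600 bp. They were 0.491, 0.432 and 0.266 in control replicate 2, 0.553, 0.446 and 0.306 in ISWI replicate 1 and 0.484, 0.409 and 0.226 in ISWI replicate 2. Naked DNA showed a like slope of smaller size, from 1.07 at 1 to 250 bp to 0.920 at 601 to 800 bp and 0.732 above 1000 bp. In BG3-c2 nanopore replicate 1 the ratio stayed at 0.996 for 601 to 800 bp and was 0.762 above 1000 bp.

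**Figure D5:**
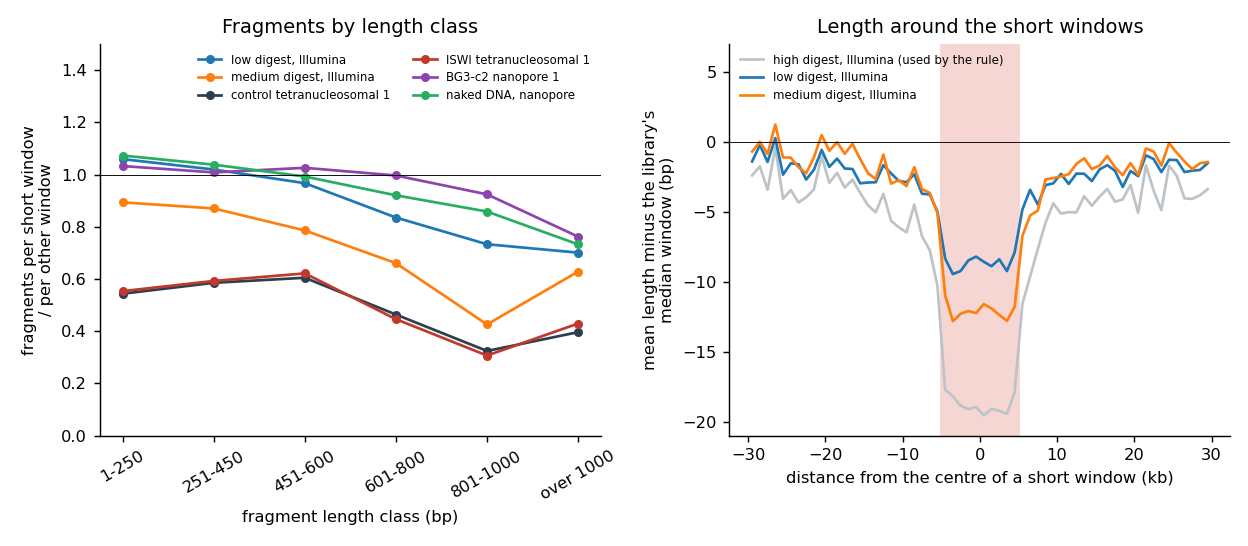
The left panel gives the fragments per short window divided by those per other window, by length class (bp), in 6 libraries. The right panel gives the mean length of 500 to 1000 bp fragments in 1 kb bins around the centre of the short windows, minus the median window of the library (bp), with the window shaded. In the medium digest the 10 bins inside lie between -12.8 and -11.0 bp.

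The shorter lengths were most marked inside the windows and continued weakly beyond them. In 1 kb bins the 10 bins inside the short windows deviated from the median window by -9.46 to -7.90 bp in the low digest and by -12.8 to -11.0 bp in the medium digest, with no bin standing out. The bins from 5 to 10 kb beyond the centre had -4.99 to -2.31 bp in the low and -6.73 to -1.81 bp in the medium digest. From 10 to 30 kb the bins had -3.23 to 0.269 bp and -2.98 to 1.23 bp. Windows 100 kb to either side, short ones included, averaged -1.05 and -0.879 bp in the low digest. With short ones left out, the values were -0.304 and -0.190 bp. In control replicate 1 these windows averaged -2.21 and -2.09 bp, and -1.20 and -0.844 bp with short ones left out. Windows next to a short window that were not short themselves, 858 in number, averaged 695.8 bp in the low digest and 664.98 bp in control replicate 1. Windows with no such neighbour averaged 698.0 and 668.8 bp.

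With ISWI dsRNA tetranucleosome fragments were shorter than with control dsRNA in both sets of windows. Window means fell by 24.9 bp in the short and by 23.7 bp in the other windows. The responses differed by -1.14 bp, with 1.09 bp in replicate 1 and -3.37 bp in replicate 2, and an exact two-sided permutation test of 2 against 2 libraries gave p = 1, where 0.33 is the smallest possible. With pooled fragments the responses were -23.9 and -24.4 bp and differed by 0.558 bp (exact permutation p = 0.667). Over windows, limma was applied to lengths centred on each library's median window in the 653 windows with 100 or more fragments in all 4 libraries. Only 5 of the short windows entered, and 0 of these and 0.0% of all windows were called at an adjusted p of 0.05, with 16 windows and 0 short ones at an unadjusted p under 0.05. With 30 fragments required, 6284 windows and 65 short ones entered and 0.0% were called, with 211 and 2 at an unadjusted p under 0.05. Not centred, limma called 74.9% of the 653 windows, all lower with ISWI dsRNA, and 2 of the 5 short ones.

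H1 knockdown in Kc cells gave no resolved difference. The length of pooled 500 to 1000 bp reads changed by 5.42 and -15.2 bp in the short windows and by 3.07 and -22.4 bp in the other windows, in replicates 1 and 2. The responses differed by 2.34 bp and 7.20 bp, a mean of 4.77 bp (exact two-sided permutation p = 0.33, the smallest that 2 against 2 libraries allow). Replicate 2 of both Kc groups had 558 and 582 such reads in the short windows.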

How the data were processed

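Each table that the authors deposited lists 1 genome interval per fragment. The submitters' processing notes name dm3, Bowtie 1.1.1 and bedtools, with no role or order. Most nanopore tables also hold a score per interval that the authors deposited, which served 1 alternative, with scores under 20 left out. From the coordinates, identical intervals were counted once, length was end minus start, and each fragment went to the window of its midpoint. Window means needed 30 fragments. Coverage was log2 of the count plus 0.5 over the library's median window. Phasing used left ends at lags of 150 to 1200 bp, leaving out 1 kb bins over 5 times the median. The ladder was smoothed with an SD of 10 bp. Libraries were compared by exact sign-flip and permutation tests, windows with limma 3.58.1 and Benjamini-Hochberg adjustment. The scripts were checked on simulated data. Named windows were the lowest 5 by the rule, the 2 on each side of the limit and the 3 longest runs. The 5 short windows lowest by mean rank in 4 other libraries were also named. The members, lists and tests were chosen with earlier results of these data known.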

Additional observations from a re-analysis of the deposited data

Results flagged for a closer look

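In 5 comparisons all libraries measured in one group moved one way and all measured in another the opposite way. None of these differences was tested. Coverage of the short against the other windows was higher in both Kc control libraries and lower in both untreated BG3-c2 nanopore libraries, a difference of 0.269 on the log2 scale. It was lower in both Kc H1 libraries, which is -0.107 relative to Kc control. On nanopore it was 0.097 higher in the low than in the medium digest, with 1 library each. The amplitude at 178 bp was higher in the short windows of naked DNA, with 1 library. It was lower in those of BG3-c2 nanopore replicate 1, the only replicate fitted there, and of both control tetranucleosomal libraries. The differences were 0.683 and 1.36 points. ISWI replicate 2, also chromatin, was higher in the short windows by 0.362 points.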

How the results depend on the processing

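Of 224 values under alternatives, 154 were counted as unchanged. For differences over the 4 tetranucleosomal libraries and for the ISWI and H1 responses, this means the same direction only, whatever the size. For most other results it also means a value within the spread or counting interval of the value reported. The cause of the other changes was not tested. In the 4 tetranucleosomal libraries the differences in length, mode, share of 500 to 600 bp and coverage kept their direction under every alternative run, including without replicate 2 of both groups, an alternative added after the data were seen. Leaving out 1 library gave length differences of -14.5 to -13.1 bp and coverage differences of -0.96 to -0.92. Few short windows could be measured in replicates 2 of the tetranucleosomal libraries and few reads in those of Kc.

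The length difference in the low and medium digest was -11.0 and -17.4 bp with medians, -9.29 and -13.7 bp with all listed intervals, -8.22 and -12.6 bp at 550 to 900 bp and -7.82 and -12.0 bp for the lowest 10%. It was -10.9 and -15.3 bp for the lowest 2%, -8.62 and -12.8 bp with 600 fragments, -8.85 and -12.95 bp on autosomal arms and -7.66 and -11.4 bp in 20 kb windows. With naked DNA coverage near the median it was -13.1 bp in the medium digest. Naked DNA gave -2.62 bp at 550 to 900 bp, -5.41 bp for the lowest 10%, -5.63 bp with 600 fragments and -5.27 bp in 20 kb windows. Nanopore low, medium and high digests gave -2.51, -7.47 and -2.39 bp at 550 to 900 bp, and -3.95, -10.2 and -7.18 bp in 20 kb windows. Kc control nanopore gave -12.25 bp with medians, -1.69 bp for the lowest 2%, -8.41 bp on autosomal arms and 0.699 bp in 20 kb windows. The share of short windows on X was 8.66% with 600 fragments, where X held 7.60% of the eligible windows. It was 10.4% with naked DNA coverage near the median, where X held 4.22% of them.

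The difference between the ISWI responses changed sign to 0.846 bp with medians, 0.916 bp at 550 to 900 bp, 0.253 bp for the lowest 2%, 0.600 bp in 20 kb windows and 0.558 bp with pooled fragments, which was added after the data were seen. Without 1 library it ran from -3.30 to 1.02 bp. The H1 difference became -2.09 bp at 550 to 900 bp and -0.147 bp in 20 kb windows. With the replicate number as a block the responses stayed at -1.14 bp (exact sign-flip p = 1) and 4.77 bp (exact sign-flip p = 0.5), and limma with the block called 0 windows. The numbers are not shown to pair the libraries, since same-numbered libraries correlated at 0.234 over 6284 windows with 2 pairs only. Without control replicate 1, limma called 5 windows, of which 0 were short, and not centred it called 2 short windows.

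Coverage of the low, medium and high Illumina digests was -0.12, -0.40 and -0.39 with all listed intervals, -0.29, -0.59 and -0.45 over 500 to 1000 bp, -0.096, -0.34 and -0.34 for the lowest 10%, and 0.016, -0.27 and -0.28 on autosomal arms. For the nanopore low, medium and high digests and naked DNA it was 0.11, -0.093, -0.28 and -0.13 over 500 to 1000 bp, -0.027, -0.12, -0.16 and -0.090 for the lowest 10%, and 0.14, 0.037, -0.049 and 0.026 on autosomal arms. The amplitude difference became 3.15 points when dense bins were kept and -0.710 points in the low digest with 500 to 1000 bp fragments. The mean period difference over the 4 tetranucleosomal libraries was 3.50 ± 49.5 bp (SD, n = 4). It includes control replicate 2, whose short windows gave 250 bp, the limit of the search, so it is not read as a result. Without 1 library it ran from -19.0 to 20.7 bp, and the ladder difference of BG3-c2 from -4.40 to 12.2 bp.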
